A study of Mus musculus with 9 samples.

Results

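The CCN genes and the genes of caveolae were followed across 9 Illumina beadchip arrays of RNA from mouse embryonic stem (ES) cells. The 8 genes were selected on earlier results of these arrays, their signals and log2 differences in both comparisons, so those values are given as a description without tests. They were taken by symbol or older symbol from the deposited tables and are Ccn1 (Cyr61), Ccn2 (Ctgf), Ccn3 (Nov), Ccn4 (Wisp1), Ccn5 (Wisp2), Cav1, Cav2 and Cavin1 (Ptrf). The genes had 11 of the 25697 probes on the platform of the Wdr5 set and 13 of the 46643 probes on that of the Oct4 set. A gene was tested where a probe exceeded background on at least 2 arrays of its set, which held for 4 of these genes among 10119 in the Wdr5 set and for 5 among 9276 in the Oct4 set.

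In the Wdr5 set, 2 arrays carried a luciferase control labelled LucR with doxycycline and 3 carried the rescue clone Wdr5R4 without doxycycline, which the labels call knocked down for Wdr5 with a short hairpin RNA (shRNA). Both came from the ES line Aniv15, which expresses the reverse tetracycline transactivator (rtTA). The knockdown is 1 clone, and clone, shRNA and doxycycline differ together between these groups and cannot be told apart. A growth text common to all samples lists doxycycline throughout, against the labels of the knockdown. In the Oct4 set, 2 arrays carried an shRNA against Oct4 and 2 an shRNA against GFP, in CCE or E14T cells. The labels do not say which of those lines was used. All cells in both sets grew with LIF in 15% serum on primary mouse embryonic fibroblast feeders. Nothing in the labels says that replicates were separate cultures, so errors and p-values measure only the spread between these arrays. Wdr5 is a subunit of the COMPASS histone methyltransferases, and Oct4 (Pou5f1) is a transcription factor required for pluripotency.

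CCN proteins are secreted, modular proteins of the extracellular matrix that bind integrins and heparan sulphate proteoglycans and modulate growth factor signalling. Ccn1 and Ccn2 are widely used readouts of the transcriptional coactivators YAP and TAZ, which the Hippo kinases restrain, and they also respond to serum response factor (SRF) and TGF-beta. Caveolae are small invaginations of the plasma membrane, abundant in fibroblasts, endothelium and muscle, whose coat is built by caveolins and cavins.

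The targeted genes were lower in the groups that carry their names. Wdr5 fell by 0.96 on the log2 scale in its knockdown (SE 0.07, limma adjusted p = 0.000121), from a normalized log2 signal of 9.93 ± 0.05 (SD, n = 2) to 8.97 ± 0.06 (SD, n = 3). Pou5f1 fell by 2.28 in the Oct4 knockdown (SE 0.15, adjusted p = 0.000685), from 11.52 ± 0.11 to 9.24 ± 0.05 (SD, n = 2 each). Arrays of a group correlated at 0.995 to 0.996 in the Wdr5 set and 0.978 to 0.989 in the Oct4 set. Between the groups of a set the correlation was 0.926 to 0.929 and 0.867 to 0.891. Mean probe intensity was 448 and 518 with the luciferase control and 375 to 429 with the Wdr5 knockdown. With the GFP control it was 344 and 278, but the Oct4 knockdown gave 110 and 111, so its arrays were dimmer before normalization.

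Ccn1 was measured by 3 probes in the Wdr5 set. The probe of highest mean signal had deposited intensities of 522 and 509 with the luciferase control, against 1885, 1861 and 1650 with the Wdr5 knockdown. Every knockdown array was brighter than either control array. After background correction and quantile normalization within the set, its log2 signal averaged 8.91 ± 0.19 in the control and 10.89 ± 0.05 in the knockdown (SD, n = 2 and 3). The difference was 1.98 ± 0.10 (SE), or 3.95-fold. The other 2 probes gave differences of 1.62 ± 0.11 and 2.59 ± 0.07 (SE), so the 3 probes shared a direction and differed in size from 3.08-fold to 6.03-fold. In RNA pooled over cells, a change in cell types and one in RNA per cell cannot be told apart for any gene described here.

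After Oct4 knockdown Ccn1 reached intensities of 239 and 273, while both GFP arrays, at 16.1 and -6.70, were not above background. The groups did not overlap, and the normalized signal was at least 5.53-fold higher in the knockdown. This bound sets the mean of the knockdown arrays against the lowest signal among detected probes of each control array. A second Ccn1 probe exceeded background on 1 of the 2 GFP arrays. Its deposited intensities lay close together, at 118 and 60.3 in the control and 156 and 119 in the knockdown. Its normalized difference was 1.88 ± 0.26 (SE). Quantile normalization gives each array of a set the same distribution, so a probe on the dimmer Oct4 knockdown arrays gains relative to its deposited intensity.

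The 250 bases upstream of the annotated start of Ccn1 are shown with those of Cav1 and Cav2, a pair of chromosome 6 neighbours of which only Cav1 was detected. The sequences are RefSeq's for build GRCm38.p6 and are written 5′ to 3′ on the strand of the gene. A table of promoter windows held 4 of the 8 genes, the others being Ccn2, Ccn3, Ccn4 and Ccn5. Capitals mark matches on either strand to GGAATG, the core of the motif of TEAD factors that carry YAP and TAZ to DNA, or to TATAAA, the TATA box.
Ccn1, chr3:145649986-145650235, minus strand: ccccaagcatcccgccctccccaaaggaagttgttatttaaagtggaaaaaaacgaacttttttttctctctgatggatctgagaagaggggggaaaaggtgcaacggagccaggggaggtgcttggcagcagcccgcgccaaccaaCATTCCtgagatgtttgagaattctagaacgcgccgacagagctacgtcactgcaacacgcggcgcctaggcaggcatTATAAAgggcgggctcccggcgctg
Cav1, chr6:17306085-17306334, plus strand: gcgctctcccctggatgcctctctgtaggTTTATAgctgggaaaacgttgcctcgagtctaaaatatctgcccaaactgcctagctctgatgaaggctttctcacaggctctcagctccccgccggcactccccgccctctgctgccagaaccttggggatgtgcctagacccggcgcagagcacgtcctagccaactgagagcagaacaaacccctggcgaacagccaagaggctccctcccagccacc
Cav2, chr6:17280935-17281184, plus strand: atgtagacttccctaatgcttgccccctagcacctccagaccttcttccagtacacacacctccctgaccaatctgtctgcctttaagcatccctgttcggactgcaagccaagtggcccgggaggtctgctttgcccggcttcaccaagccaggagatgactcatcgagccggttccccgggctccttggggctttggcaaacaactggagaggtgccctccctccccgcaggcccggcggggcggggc
The Ccn1 window held the TEAD core on the opposite strand (CATTCC), 103 bases before the start, and a TATA box 25 bases before it. The Cav1 window held TTTATA, the letters TATAAA on the opposite strand, 221 bases before the start. A second annotated Cav1 start and the Cav2 window held neither motif, and the Cavin1 window held CATTCC 249 bases before its start. No window of these genes held a CArG box, the SRF motif. Of 32851 windows of the same length, 12.6% held GGAATG, 12.4% held TATAAA and 1.47% held a CArG box on either strand. The matches describe letters in these windows and not bound sites, and the motifs searched do not overlap one another in the windows shown.

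Ccn2, the connective tissue growth factor, was above background on all 9 arrays. Its single probe in the Wdr5 set read 2874 and 3703 with the luciferase control, and 15924, 14568 and 12726 with the knockdown. The knockdown arrays all lay above the controls. Mean normalized log2 signals were 11.59 ± 0.10 and 14.00 ± 0.10 (SD, n = 2 and 3), a 5.33-fold difference (log2 SE 0.09) that ranked 73 from the highest among the genes tested. The probe of the Oct4 set read 716 and 320 with the GFP control, which lay far apart, and 1075 and 1090 with the Oct4 knockdown. The groups did not overlap. The normalized difference was 2.69 ± 0.27 (SE), or 6.47-fold, from 8.38 ± 0.54 to 11.07 ± 0.02 (SD, n = 2 each), and ranked 102.

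Ccn4, a CCN protein first described as a target of Wnt1 signalling, had intensities of 140 and 130 with the luciferase control and 2054, 1863 and 1742 with the Wdr5 knockdown. Mean normalized log2 signals were 7.00 ± 0.24 and 10.96 ± 0.01 (SD, n = 2 and 3). The 15.5-fold difference (log2 3.96, SE 0.11) ranked 4 of the 10119 genes. After Oct4 knockdown it read 131 and 147, at least 3.02-fold above the GFP arrays, which at -23.0 and -40.4 were not above background. The groups were separate in both sets. A second Ccn4 probe in each set did not exceed background on any array, with intensities from 4.20 to 16.6 in the Wdr5 set and from -21.7 to -5.80 in the Oct4 set. The 2 probes for Ccn4 therefore disagreed within each platform.

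Ccn3, first found as a gene overexpressed in nephroblastoma of the chicken, and Ccn5, which lacks the C-terminal module of the family, were not detected. Ccn3 had no probe in the Wdr5 set, and its 2 probes in the Oct4 set read -39.9 to 4.10. Ccn5 read -7.60 to 15.0 in the Wdr5 set and -37.6 to -13.4 in the Oct4 set. No level can be given for either gene on these arrays.

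Cav1, the principal coat protein of caveolae outside muscle, showed the widest separation of the 8 genes in the Wdr5 set. It read 44.9 and 94.0 with the luciferase control, both above background, and 1505, 1570 and 1398 with the Wdr5 knockdown. The lowest knockdown array was far above the higher control. Mean normalized log2 signals were 6.10 ± 0.44 and 10.63 ± 0.09 (SD, n = 2 and 3), a 23.1-fold difference (log2 4.53, SE 0.19) that ranked 2 of the 10119 genes. With the Oct4 knockdown Cav1 read 79.8 and 99.6, against -11.4 and -29.4 with the GFP control. Of these arrays only those of the knockdown exceeded background, at least 2.00-fold higher.

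Cav2, which assembles with Cav1 into hetero-oligomers, was not above background on any of the 9 arrays. Its 2 probes read -11.0 to 5.30 in the Wdr5 set and -37.2 to 2.80 in the Oct4 set. Cavin1, the cavin required for caveola formation, did not exceed background anywhere in the Wdr5 set, where its probe read -6.40 to 3.20. On the other platform, 1 Cavin1 probe read 156 and 187 with the GFP control and 347 and 307 with the Oct4 knockdown. Both knockdown arrays were brighter, and the normalized difference was 2.37 ± 0.16 (SE), or 5.18-fold, from 6.99 ± 0.19 to 9.36 ± 0.10 (SD, n = 2 each). The second Cavin1 probe of that set read -26.6 to -5.30 and was not above background, so the 2 probes disagreed. Transcripts of Cav1 and of its coat partners Cav2 and Cavin1 were thus not detected together on any Wdr5 knockdown array, while Cav1 and Cavin1, without Cav2, were detected on both Oct4 knockdown arrays. The sets used different platforms, and that of the Wdr5 set had 1 Cavin1 probe, so Cavin1 cannot be compared between them.

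**Figure D1:**
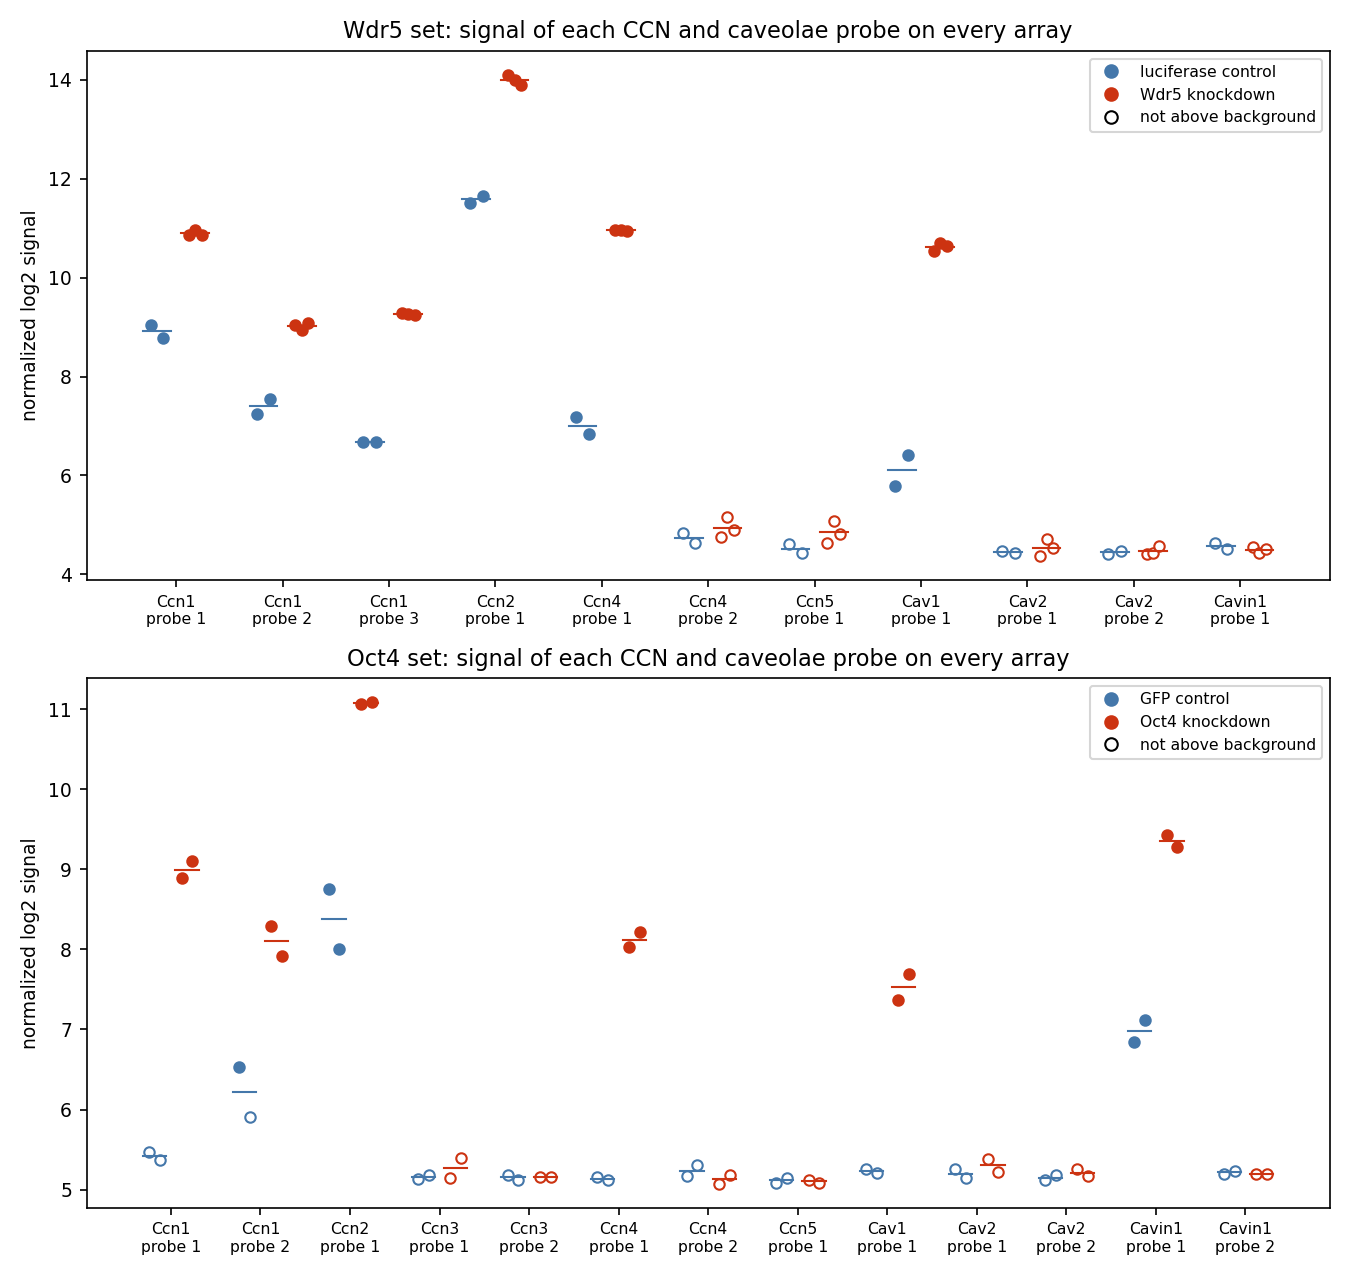
Normalized log2 signal (y axis) of each probe of the CCN and caveolae genes (x axis) on every array of the Wdr5 set (top) and the Oct4 set (bottom). Points are arrays, lines are group means, and open points were not above background. The groups stand apart for Ccn2 (means 11.59 and 14.00 at the top, 8.38 and 11.07 at the bottom), while Ccn3, Ccn5 and Cav2 had open points only.

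All 4 of these genes tested in the Wdr5 set passed an adjusted p of 0.05 as higher, beside 38.2% of all genes tested (30.5% were lower), and all 5 tested in the Oct4 set did so, beside 24.3% (18.1% were lower). The 8 genes were chosen with these comparisons known, and 3 of the 5 in the Oct4 set (Ccn1, Ccn4 and Cav1) passed the detection filter through the knockdown alone, so nothing is read from those counts. Genes passing in either direction made up 68.7% of the Wdr5 comparison and 42.4% of the Oct4 comparison. The median log2 difference of all genes was 0.10 and -0.02.

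The authors' deposited table gave log2 fold changes in the same direction for each of these genes, of smaller size except at Ccn2 in the Wdr5 set. In the Wdr5 comparison the authors' deposited table listed 1.58 for Ccn1, 2.61 for Ccn2, 2.56 for Ccn4 and 2.49 for Cav1. In the Oct4 comparison the authors' deposited table listed 0.95 for Ccn1, 1.69 for Ccn2, 0.67 for Ccn4, 0.45 for Cav1 and 0.88 for Cavin1. The lower bounds given for Ccn1, Ccn4 and Cav1 exceed those values and hold for the background correction and normalization used here. The order of the genes in the Wdr5 comparison therefore differed between the processing used here and that of the authors. Cav1 and Ccn4 differed more than Ccn2 in the processing used here. They also did so without background correction, with scaling to a common median and with an offset of 50. In the authors' values Ccn2 led by a small margin. The cause of this difference in order was not tested. Without Oct4 knockdown array 1, or without array 2, Cav1 and Ccn4 no longer met the filter of 2 arrays above background. The first Ccn1 probe failed it too, and Ccn1 was then measured by its second probe, at 1.73 and 2.09. With Ccn2 and Cavin1, 3 of the genes were still tested and called.

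**Figure D2:**
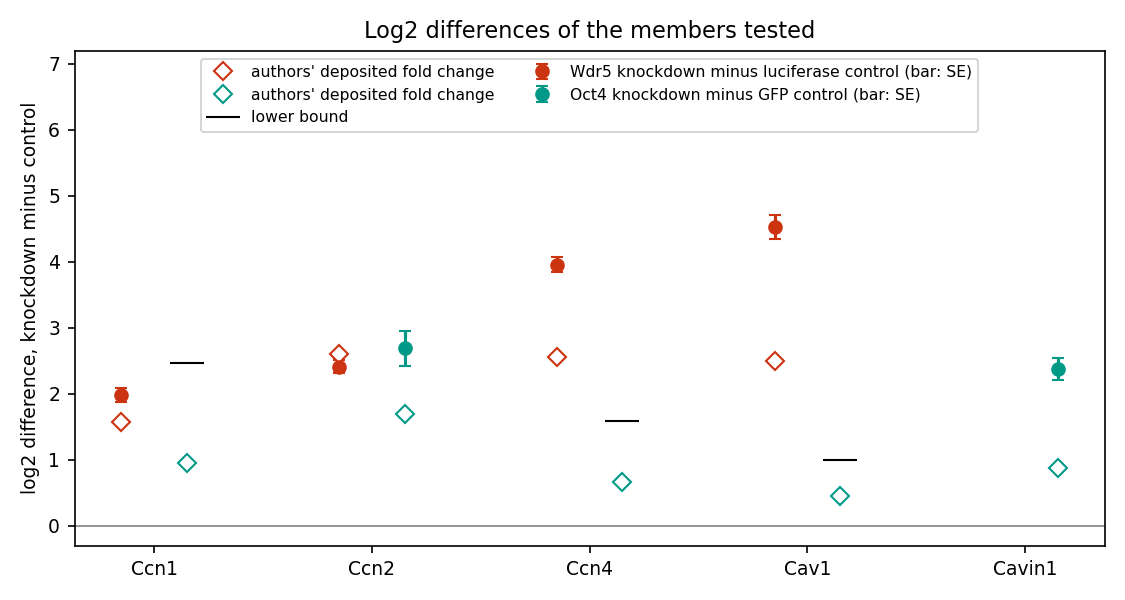
Log2 difference, knockdown minus control (y axis), of each tested gene (x axis) in the Wdr5 and Oct4 comparisons. Filled points with bars are fitted differences ± SE, open diamonds are the authors' deposited fold changes, and black lines stand in place of a fitted value as lower bounds where the control was not above background. The fitted differences of the Wdr5 comparison run from 1.98 for Ccn1 to 4.53 for Cav1, and those of the Oct4 comparison are 2.69 for Ccn2 and 2.37 for Cavin1.

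The gene lists from here on were chosen with earlier results of these arrays known, so their counts and adjusted p-values are descriptive. They stand beside 38.2% of all genes tested higher and 30.5% lower in the Wdr5 comparison. The shares in the Oct4 comparison were 24.3% and 18.1%. Some of the other genes of caveolae rose. Of 9 listed genes, 7 were tested in the Wdr5 set, of which 5 rose and none fell, with a median log2 difference of 0.94. Cavin2, a cavin that shapes caveolae, was not above background in the control and rose at least 4.94-fold (limma adjusted p = 1.27e-05). Cavin3, a cavin that binds protein kinase C delta, rose by 2.23 ± 0.10 (SE, log2; adjusted p = 2.16e-05). The muscle cavin Cavin4 rose by 0.70 ± 0.10 (adjusted p = 0.00119). Of the EHD ATPases that sit at the neck of caveolae and in recycling membranes, Ehd1 rose by 1.67 ± 0.08 (adjusted p = 3.41e-05) and Ehd4 by 0.94 ± 0.08 (adjusted p = 0.000211). The membrane-bending proteins Pacsin2 and Pacsin3 differed by 0.29 ± 0.14 and 0.08 ± 0.16 and did not pass (adjusted p = 0.111 and 0.68). Cav3, the muscle caveolin, and Ehd2 were not detected on any array of that set.

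Of those 9 genes, 4 were tested in the Oct4 set, of which 2 rose and none fell, with a median of 0.39. Ehd1 was not above background in the control and rose at least 2.20-fold (limma adjusted p = 0.00245). Cavin4 rose by 0.53 ± 0.14 (adjusted p = 0.0305), a call lost in 7 alternatives, among them without GFP array 1 (0.41) and without Oct4 knockdown array 1 or 2 (0.57 and 0.50). No gene of this list was called without either Oct4 knockdown array. Ehd4 and Pacsin3 differed by 0.01 ± 0.14 and 0.26 ± 0.14 and did not pass (adjusted p = 0.951 and 0.182). Cavin2, Cavin3, Cav3, Ehd2 and Pacsin2 were not tested there.

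Receptors and partners of CCN proteins were measured by 9 of 11 listed genes in the Wdr5 set, of which 6 rose and 1 fell (median 0.55). The integrin subunits Itga5, Itgb1 and Itga6 rose by 2.00 ± 0.12, 1.57 ± 0.09 and 1.39 ± 0.12 (log2 ± SE; limma adjusted p = 5.29e-05, 4.09e-05 and 0.000167). Sdc4, a heparan sulphate proteoglycan of focal adhesions, fell by 0.64 (SE 0.08, adjusted p = 0.000603). Oct4 knockdown gave 7 tested genes, of which 4 rose and none fell (median 0.87). Itgb1 and Itgb5 rose by 2.51 ± 0.14 and 1.90 ± 0.15 (adjusted p = 0.000586 and 0.000998), and Sdc4 rose by 1.21 ± 0.14 (adjusted p = 0.00259). Itgb5 was above background on 1 of the 2 GFP arrays. Sdc4 thus passed in opposite directions in the 2 comparisons, which used other platforms, lines and controls; the difference between them was not tested.

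Genes of the Hippo pathway and the TEAD factors changed in both directions. The Wdr5 comparison covered 12 of 20, of which 5 rose and 3 fell (median 0.21), beside 38.2% and 30.5% of all genes. With scaling to a common median, which moved the median of all genes to 0.19, 9 were called higher. The kinase Stk4 rose by 0.90 ± 0.08 (SE; limma adjusted p = 0.000191), Tead4 by 0.86 ± 0.07 (adjusted p = 0.000168) and the upstream FERM protein Frmd6 by 0.69 ± 0.09 (adjusted p = 0.000774). The kinase Stk3, the paralog of Stk4, fell by 2.20 (SE 0.15, adjusted p = 7.45e-05), the kinase cofactor Mob1a by 0.53 (SE 0.08, adjusted p = 0.00183) and the scaffold Wwc1 by 0.38 (SE 0.07, adjusted p = 0.00313). The Oct4 comparison tested 12, of which 5 rose and 1 fell (median 0.39). Before normalization their summed intensity was 10659 and 8606 with the GFP control and 4563 and 4176 with the dimmer knockdown arrays. Amotl1, an angiomotin that binds YAP, rose by 1.54 ± 0.14 (adjusted p = 0.00154), Tead2 by 1.06 ± 0.17 (adjusted p = 0.00631) and Wwtr1, which encodes TAZ, by 0.78 ± 0.14 (adjusted p = 0.00854). Nf2, which encodes the Hippo activator merlin, fell by 0.59 (SE 0.16, adjusted p = 0.0317). Amotl1 kept its call without each array, but the count did not: without Oct4 knockdown array 1 or 2, the number called higher was 1 or 2 and none was lower, and Wwtr1 (0.83 and 0.74) and Nf2 (-0.65 and -0.54) were not called. Tead2 (0.97) was not called without array 1, nor Nf2 (-0.46) without GFP array 2. Yap1 itself did not pass in either set, at 0.17 ± 0.07 and 0.40 ± 0.17 (adjusted p = 0.0814 and 0.112).

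Other genes known as targets of YAP and TAZ were counted in both knockdowns. After Wdr5 knockdown 13 of 20 were tested, 11 rose and none fell, with a median of 1.12 beside 0.10 over all genes. Of the 10 that were above background in both groups, 8 rose (median 1.00). Crim1, a transmembrane protein that binds bone morphogenetic proteins, and Rbms3, an RNA-binding protein, were not above background in the control and rose at least 5.24-fold and 3.99-fold (limma adjusted p = 2.06e-05 and 2.52e-05). Ccdc80, a matrix protein, rose by 2.36 ± 0.07 (adjusted p = 1.42e-05). After Oct4 knockdown 12 were tested, 11 rose and none fell, with a median of 2.55 beside -0.02 over all genes, but 5 of them were not above background in the control and passed the filter through the knockdown. With those at their lower bounds the median was 1.82, and of the 7 above background in both groups 6 rose (median 1.62). The receptor tyrosine kinase Axl and the ligand Tgfb2 rose at least 13-fold and 4.59-fold (adjusted p = 0.000381 and 0.000458). F3, the coagulation tissue factor, rose by 3.46 ± 0.23 (adjusted p = 0.000751). Without Oct4 knockdown array 1 or 2, the number called higher was 3 or 5, and Axl was then measured by another probe, at -0.23 and -0.17, and not called. That probe was above background on both GFP arrays, so the 2 Axl probes disagreed and the bound holds for 1 of them.

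SRF, its cofactors and their targets were listed together. After Wdr5 knockdown 11 of 14 were tested, 9 rose and 2 fell (median 1.19). Tagln, Acta2 and Tpm1, which encode transgelin, smooth muscle alpha-actin and tropomyosin 1, rose by 3.12 ± 0.08, 2.78 ± 0.07 and 2.21 ± 0.07 (log2 ± SE; limma adjusted p = 1.27e-05, 1.27e-05 and 1.56e-05). The immediate-early genes Fos and Egr1 fell by 0.54 (SE 0.08, adjusted p = 0.00147) and 0.36 (SE 0.10, adjusted p = 0.0189). Egr1 was not called without luciferase array 1 (-0.29) or with scaling to a common median (-0.14). The Oct4 comparison tested 12, of which 9 rose and 1 fell (median 2.38), and of the 9 above background in both groups 6 rose (median 2.01). Acta2 rose by 7.59 ± 0.35 (adjusted p = 0.000458), Tpm1 by 4.47 ± 0.15 (adjusted p = 0.000367) and Tagln at least 7.69-fold (adjusted p = 0.000367). Egr1 fell by 1.93 (SE 0.18, adjusted p = 0.00164), and neither Fos, at 0.00 ± 0.37, nor the SRF cofactor Mrtfa, at 0.30 ± 0.19, passed (adjusted p = 0.999 and 0.259). The number called higher was 5 without Oct4 knockdown array 1.

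Of the TGF-beta pathway, 10 of 14 genes were tested in the Wdr5 set, 7 rose and none fell (median 0.57). Ltbp1, which stores latent TGF-beta in the matrix, rose by 2.62 ± 0.11 (SE; limma adjusted p = 2.06e-05), the ligand Tgfb3 at least 2.66-fold (adjusted p = 0.000147) and the signal transducer Smad3 by 1.13 ± 0.09 (adjusted p = 0.000152). After Oct4 knockdown 9 were tested and 9 rose (median 1.17), of which 6 were above background in both groups (median 0.98). Before normalization their summed intensity was 5559 and 4135 with the GFP control and 3487 and 3282 with the dimmer knockdown arrays. The receptor Tgfbr2 rose at least 6.41-fold (adjusted p = 0.000557), Smad3 by 2.73 ± 0.29 (adjusted p = 0.00212) and the co-receptor Tgfbr3 at least 2.15-fold (adjusted p = 0.000944). Of them, 1 or 2 were called without Oct4 knockdown array 1 or 2.

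**Figure D3:**
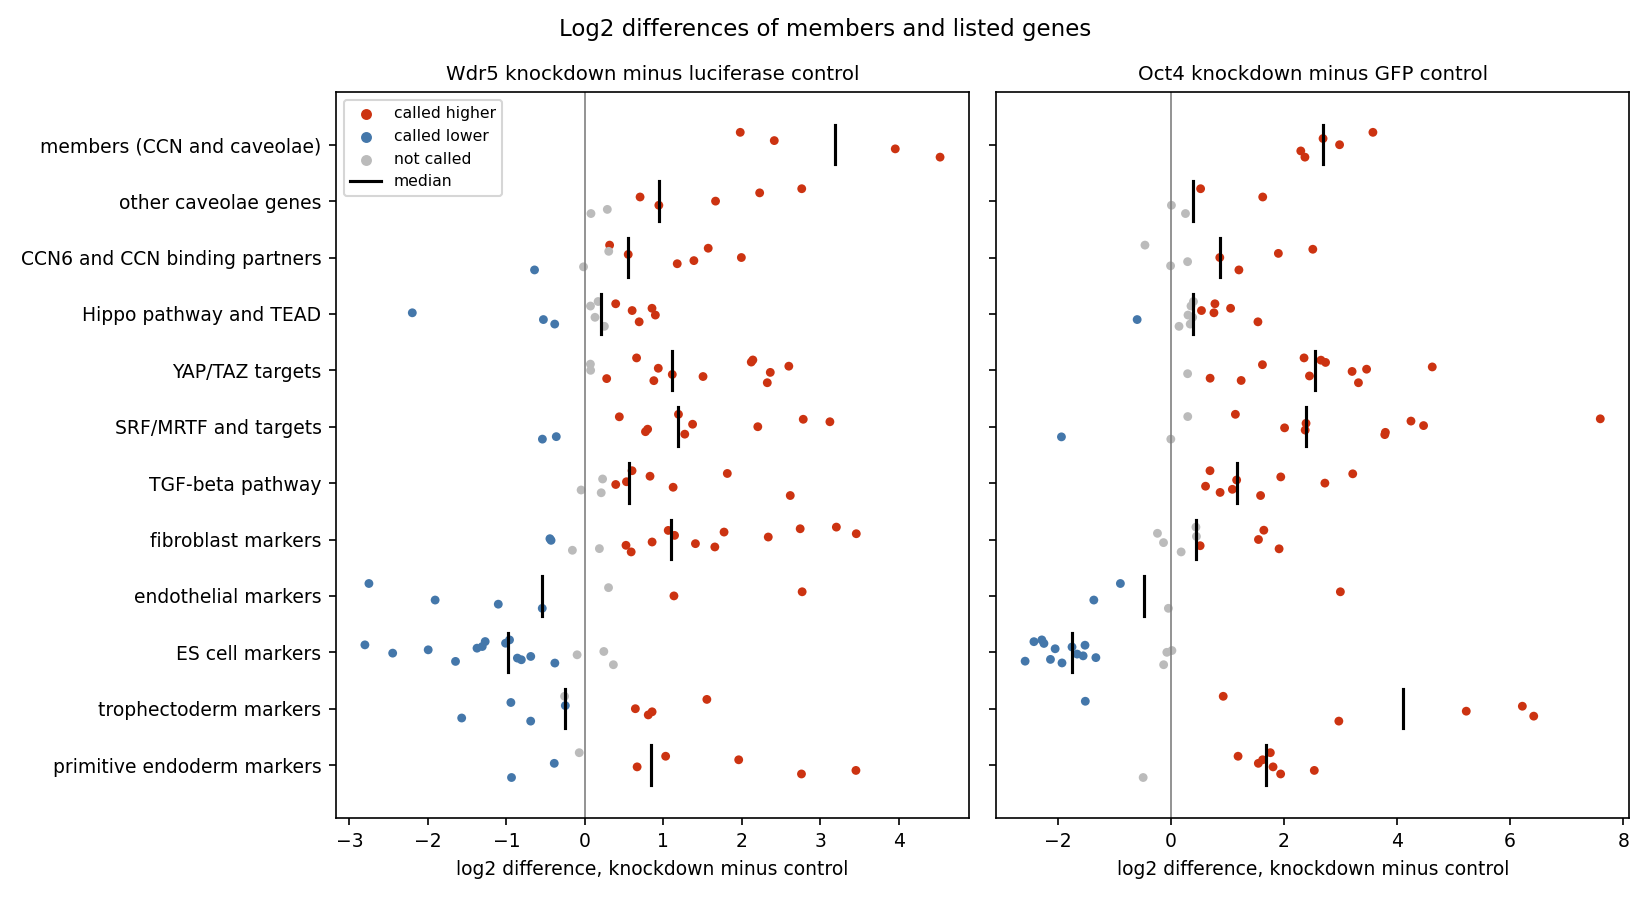
Log2 difference, knockdown minus control (x axis), of the CCN and caveolae genes and of each listed gene group (y axis) in the Wdr5 comparison (left) and the Oct4 comparison (right). Each point is a gene coloured by its call at an adjusted p of 0.05, genes not above background in a group are drawn at their fitted value, and black lines are group medians, including 1.12 and 2.55 for YAP/TAZ targets and -0.98 and -1.75 for ES cell markers.

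Feeder fibroblasts express CCN and caveolae genes, so fibroblast markers were set beside them. On the arrays of the Wdr5 set 16 of 23 fibroblast markers were tested, 12 rose and 2 fell (median 1.10). Their summed normalized signal was 5173 and 5179 on the luciferase arrays and 10307 to 10485 on the knockdown arrays. The largest rises were in the collagens Col1a1 (3.21 ± 0.07, limma adjusted p = 1.27e-05) and Col3a1 (2.75 ± 0.13, adjusted p = 2.64e-05) and in the proteoglycan Dcn (at least 8.87-fold, adjusted p = 1.27e-05). Thy1 and Pdgfra, surface proteins of fibroblasts, fell by 0.44 (SE 0.09, adjusted p = 0.00507) and 0.43 (SE 0.10, adjusted p = 0.00978), although Pdgfra (-0.36) was not called without luciferase array 2. Of 12 defining fibroblast markers, 7 were above background on a control array and 9 on a knockdown array, and Lum, Postn and Prrx1 on none. Of the 16 markers, 12 rose in this set, 2 fell and 2 did not pass, beside 38.2% of all genes tested higher and 30.5% lower. Ccn1, Ccn2, Ccn4 and Cav1 were higher in the same comparison. The part of fibroblast transcripts in the differences of those 4 genes was not tested.

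Of the 23 fibroblast markers, 9 were tested in the Oct4 set, 4 rose and none fell (median 0.45). Their summed normalized signal was 1232 and 1299 with the GFP control and 2878 and 3114 with the knockdown. Before normalization their summed intensity was 1837 and 1513 with the GFP control and 1535 and 1381 with the dimmer knockdown arrays. The summed rise thus appeared only after normalization. The same was true of the Hippo, TGF-beta, other caveolae and endothelial lists in this set. The summed intensity of the SRF, trophectoderm and primitive endoderm lists was higher on both knockdown arrays before normalization too. Fstl1, a secreted glycoprotein, rose by 1.92 ± 0.15 (SE; limma adjusted p = 0.000968), Col5a2 at least 1.24-fold (adjusted p = 0.00159) and Pdgfra by 1.55 ± 0.21 (adjusted p = 0.00384). That Pdgfra probe was above background on 1 of the 2 GFP arrays. Without Oct4 knockdown array 1 or 2, 1 marker was called higher, and Pdgfra was measured by another probe, at -0.079 and 0.11, and not called. The 2 Pdgfra probes thus disagreed. Of the 12 defining markers, 9 were above background on no array of the set, among them Col1a1, Col1a2, Col3a1, Dcn and Thy1. Pdgfra, Prrx1 and Twist1 were detected in both groups.

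Caveolae are also abundant in endothelium, whose markers changed in both directions. In the Wdr5 set 7 of 12 were tested, 2 rose and 4 fell (median -0.54). The VEGF receptor Flt1 and the adhesion molecule Esam rose by 2.77 ± 0.09 and 1.14 ± 0.10 (SE; limma adjusted p = 1.42e-05 and 0.000189). Pecam1, Vwf and Plvap, the last a protein of endothelial diaphragms, fell by 2.75 (SE 0.14), 1.91 (SE 0.12) and 1.10 (SE 0.13), with adjusted p = 3.34e-05, 5.51e-05 and 0.000628. The Oct4 comparison tested 4, of which 1 rose and 2 fell (median -0.47). Flt1 rose at least 4.61-fold (adjusted p = 0.000571), Esam fell by 1.36 (SE 0.23, adjusted p = 0.00729) and Pecam1 was at least 1.38-fold lower (adjusted p = 0.0122). Without Oct4 knockdown array 1 none of these was called, Esam and Pecam1 then differing by -1.11 and -0.73, and without array 2 none was called higher. Without GFP array 1 or 2, 1 was called lower.

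The label of ES cells was checked on 18 pluripotency markers. In the Wdr5 set 16 were tested, none rose and 13 fell (median -0.98), with Zfp42, Dppa3 and Klf4 falling by 2.80 (SE 0.09), 2.45 (SE 0.10) and 2.00 (SE 0.07; limma adjusted p = 1.49e-05, 2e-05 and 1.68e-05). The Oct4 comparison tested 15, of which none rose and 12 fell (median -1.75), with Fbxo15 and Sox2 falling by 2.57 (SE 0.20) and 2.42 (SE 0.15; adjusted p = 0.000977 and 0.000674). In the Wdr5 comparison 2 markers were called higher with scaling to a common median, with an offset of 50 or with an intensity trend, and 1 without Wdr5 knockdown array 1 or 3. The tested markers were detected in the controls of both sets.

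Markers of the first extraembryonic lineages were set beside the CCN and caveolae genes as well. Of the trophectoderm markers, 9 of 11 were tested in the Wdr5 set, with 4 higher and 4 lower (median -0.25, or 0.20 over the 8 above background in both groups), and 6 in the Oct4 set, with 5 higher and 1 lower (median 4.10). The keratins Krt18, Krt7 and Krt8 rose by 6.42 ± 0.25, 6.22 ± 0.30 and 5.22 ± 0.16 (SE) in the Oct4 knockdown (limma adjusted p = 0.000381, 0.000458 and 0.000367). Krt18 and Krt7 were above background on 1 of the 2 GFP arrays. Tfap2c, the marker called lower there, fell by 1.51 (SE 0.15, adjusted p = 0.00178). Eomes, Elf5, Hand1, Plac1 and Ascl2 were above background on no array of the Oct4 set. In the Wdr5 knockdown Eomes rose by 1.56 ± 0.15 and Plac1 fell by 1.57 (SE 0.16), with adjusted p = 0.000252 and 0.000338. The number called lower there was 2 without luciferase array 1 or 2, and the number called higher in the Oct4 comparison was 3 without Oct4 knockdown array 1 or 2. Of the primitive endoderm markers, 8 of 13 were tested in each set, with 5 higher and 2 lower in the Wdr5 knockdown (median 0.85) and 7 higher and none lower in the Oct4 knockdown (median 1.69). The basement membrane collagen Col4a1 rose by 3.46 ± 0.08 and 2.54 ± 0.15 (adjusted p = 1.27e-05 and 0.000634). Amn and Lama1 fell in the Wdr5 knockdown by 0.93 (SE 0.07) and 0.39 (SE 0.08), with adjusted p = 0.000127 and 0.00492. Foxa2 and Afp were above background in neither set. The share of these lineages in the levels of the CCN and caveolae genes was not tested.

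The genes whose pattern lay nearest were taken from 6170 genes tested in both sets, over the 9 arrays, by the Euclidean distance of log2 signals after subtracting the control mean of each set. Bmp1, a procollagen C-proteinase, lay nearest to Ccn1 (distance 0.49), followed by Aif1l (0.65) and the annexin Anxa1 (0.66), where the median gene lay at 6.09. Nearest to Ccn2 were Lor, which encodes the epidermal protein loricrin (0.49), Endod1 (0.66) and the kinase Lrrk1 (0.73), beside a median of 5.63. Ccn4 lay nearest to Edn1, the endothelin 1 precursor (0.41), then to Krt14 and to the smooth muscle actin Actg2 (1.10 each), beside a median of 7.93. Cav1 had no neighbour as close, with Actg2 at 1.39, Edn1 at 1.41 and Ccn4 at 1.55, beside a median of 8.38. Edn1 was higher by 4.02 in the Wdr5 comparison, beside 3.96 for Ccn4. In the Oct4 set Ccn1, Ccn4 and Cav1 were not above background in the control, so their part of each distance is set against background signal. Likeness here rests on 2 differences and the scatter of 9 arrays. The CCN and caveolae genes were selected on those differences, so the distances, also those to the median gene, only describe them.

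**Figure D4:**
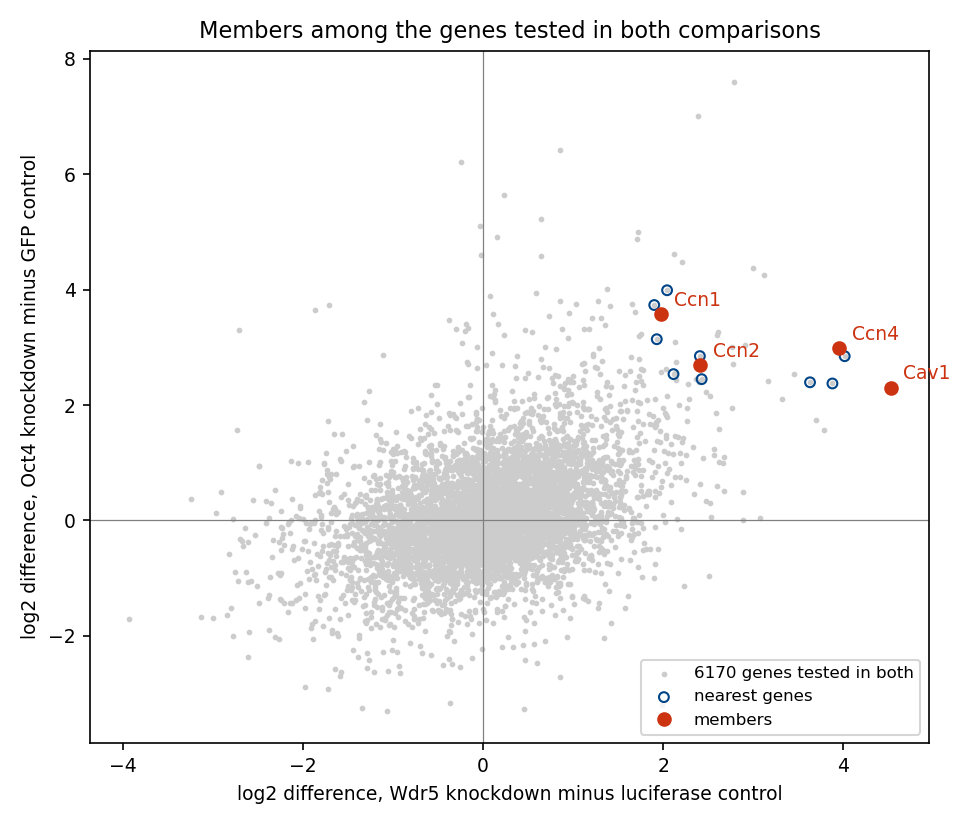
Log2 difference in the Oct4 comparison (y axis) against that in the Wdr5 comparison (x axis) for the 6170 genes tested in both. The 4 CCN and caveolae genes tested in both (filled) lie in the upper right, with Ccn1 and Ccn2 at 1.98 and 2.42 on the x axis and Ccn4 and Cav1 at 3.96 and 4.53. On the y axis Ccn1, Ccn4 and Cav1 are set against a control that was not above background. Open circles are the nearest genes.

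Cav2 and Cav1 lie side by side on chromosome 6, in the order Tfec, Tes, Cav2, Cav1, Met and Capza2 in the RefSeq table of GRCm38.p6. Among these neighbours, looked up after the data were seen, only Tes was tested. Tes, which encodes the focal adhesion protein testin, rose by 1.22 ± 0.08 in the Wdr5 comparison and 2.86 ± 0.14 in the Oct4 comparison (SE; limma adjusted p = 7.71e-05 and 0.000458). Cav2, between Tes and Cav1, was not above background in either set.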

How the data were processed

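Per the file headers, the authors deposited probe intensity values, not normalized between arrays, each beside a detection score, a fraction that approaches 1 as a probe brightens. Normalized log2 values were deposited too, as were a log2 fold change and a p-value per probe and comparison, per the file headers. The submitters' processing notes name limma, with neither version nor role; scanner, normalization and build were not given in the sources used here.

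Intensity values of each set were analysed apart (R 4.3.3, limma 3.58.1), since platforms, lines and controls differ. The neqc function used the scores for its background correction, with an offset of 16, then quantile normalization and log2. Probes scoring over 0.95 on 2 or more arrays were kept (13529 and 11324), and a gene was its kept probe of highest mean signal. The model (lmFit, eBayes) had group as its only term, tests were two-sided, and p-values were adjusted by Benjamini-Hochberg over all genes with a threshold of 0.05. Where a group was not above background on any array, a bound is given. Where a group was above background on only some of its arrays, the fitted difference is given and rests in part on background signal. The offset pulls dim probes towards 0, and quantile normalization removes changes in total RNA. The number of arrays limits the precision. The script was tested on simulated data.

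Symbols came from accessions through RefSeq's GRCm38.p6 table (24202 and 25596 probes), otherwise from the deposited symbol. The genes of interest and all lists were chosen with earlier results of these data known, so no p-value is given for the former. From each list the rule names at most the 3 largest called rises and 3 largest falls per comparison, and all caveolae genes; Yap1, Fos, Mrtfa and the neighbours of Cav1 were added after their values were seen, and fewer are named of the pluripotency and lineage lists. Nearest genes are the 3 closest per gene. Alternatives changed the background correction, normalization, offset, detection filter, probe rule, variance trend, replicate block and each array in turn.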

Additional observations from a re-analysis of the deposited data

How the results depend on the processing

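No log2 difference of the CCN and caveolae genes turned direction, and each kept its call in every alternative that gave a test. These genes were selected on those differences, so their calls, here and below, only describe the processing and lend them no support. Without Oct4 knockdown array 1 or 2, Cav1 and Ccn4 gave no test, and the value of Ccn1 (1.73 and 2.09) came from its second probe. Their lowest values were mostly the authors' deposited fold changes (0.45 for Cav1 in the Oct4 comparison), and the highest was 4.93 for Cav1 in the Wdr5 comparison without background correction. Leaving out 1 array gave 5756 to 6690 genes called in the Wdr5 comparison but 805 to 4527 in the Oct4 comparison, against 3930 with all arrays. There, 387 to 2616 genes were called higher and 418 to 1911 lower, 3 to 5 of the CCN and caveolae genes were called higher, and 23 to 58 list genes were. The lowest value of each range of the Oct4 comparison came without Oct4 knockdown array 1 or 2. Then 8250 and 8039 genes were tested, against 9276 with all arrays, and the cause of the drop in calls was not tested. The Oct4 share of calls that were higher was 57.3%, and 48.1% or 45.6% without Oct4 knockdown array 1 or 2.

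Deviations of same-numbered arrays from their group means correlated at r = -0.030 and -0.014 in the Wdr5 set and at -0.361 in the Oct4 set. With 2 arrays per group, Oct4 arrays of unlike number correlated at 0.361 by construction. These values cannot show whether arrays were paired. With the replicate number as a block, 6432 genes were called in the Wdr5 comparison and 3305 in the Oct4 comparison; the CCN and caveolae genes kept their calls (4 and 5). The crossed pairing of the Oct4 set, added after seeing the data, called 4719 genes, 2572 higher and 2147 lower.

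Among named list genes, 10 values turned direction. Pacsin2 in the Wdr5 comparison was -0.22 as the mean over its probes. Leaving out 1 array moved Pacsin3 there from -0.086 to 0.24, and in the Oct4 comparison Ehd4 from -0.071 to 0.097, Axl from -0.23 to 4.54 and Pdgfra from -0.079 to 1.62, where without an Oct4 knockdown array another probe stood for Axl and Pdgfra. Ehd4 was -0.11 with median scaling and -0.023 in the authors' log2 values. Calls of named list genes were lost 25 times and gained 2 times. With every array kept, the caveolae genes called higher in the Oct4 comparison numbered 1 with median scaling, an intensity trend, the replicate block or the authors' log2 values. SRF genes called lower in the Wdr5 comparison numbered 1 with median scaling or the block. In the Oct4 comparison endothelial markers called lower numbered 1 without background correction, at a detection score of 0.99 or in the authors' values, and Hippo genes called lower 0 without the detection filter or with the block. The causes of the other changes were not tested. The authors' log2 values of the Wdr5 set were not run, since their probes could not be matched to genes.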
